A study of Chlamydomonas reinhardtii with 2 samples.

Results

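The mitochondrially encoded genes of the unicellular green alga Chlamydomonas reinhardtii were taken as every annotated gene that the deposited tables place on the mitochondrial genome, 8 of the 17693 annotated genes. In map order they are cob, nad4, nad5, cox1, nad2, nad6, nad1 and rtl, with identifiers running from CreMt.g802337 for cob to CreMt.g802344 for rtl. RNA sequencing measured their transcripts in CC5325, labelled wild type, and in CC125, also labelled wild type. Both strains were shaken in TAP medium, which supplies acetate, in dim light (20 μmol photons per square metre and second) at 25 °C, and no other treatment or allele is named for either. Each strain gave 1 library, so the differences below have no replicate check and no p-value, and their intervals at 95% cover counting error only. Total RNA was depleted of ribosomal RNA per the labels' protocols, while the molecule field of the same labels names polyA RNA. What either selection did to mitochondrial transcripts was not tested. In such bulk libraries, fewer cells and less RNA per cell cannot be told apart.

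Mitochondria make ATP by passing electrons along respiratory complexes in their inner membrane. Most subunits of these complexes are encoded in the nucleus, and a few remain on the small linear mitochondrial genome of this alga. There, nad1, nad2, nad4, nad5 and nad6 encode membrane subunits of complex I (NADH dehydrogenase), cob encodes apocytochrome b of complex III, cox1 encodes the catalytic subunit of complex IV (cytochrome c oxidase), and rtl encodes a reverse transcriptase-like protein. The genome is transcribed in both directions from the region between nad5 and cox1 into long transcripts that are then cut into single RNAs. Its ribosomal RNA genes are broken into pieces that lie scattered among the protein and transfer RNA genes.

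The genes fell into a left group on the minus strand and a right group on the plus strand. On the coordinates of the files, whose gene identifiers name version 6.1 of the CC-4532 annotation, cob spanned mitogenome positions 518 to 1690, nad4 1691 to 3044 and nad5 3045 to 4960, all on the minus strand. After a gap of 81 bases, cox1 spanned 5042 to 6691, nad2 6692 to 7952 and nad6 7953 to 8460 on the plus strand. No base separated neighbours within either of these groups of 3. A stretch of 1892 bases without a listed gene then parted nad6 from nad1, at 10353 to 11251, and 329 bases parted nad1 from rtl, at 11581 to 12892, both on the plus strand.

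Depth over these genes was low. The 8 genes together spanned 10073 bases and held 9531 aligned bases in CC5325 and 8730 in CC125, which correspond to 64 reads of 150 bases in CC5325 and 58 in CC125. For 25 of the 26 gene and locus rows of the mitochondrial genome in the deposited tables, coverage times length gave a whole number of bases within 0.05, and the remaining locus was 0.0506 off, so that the aligned bases behind each value are known. Counts of reads below are the bases of each gene divided by 150 and rounded gene by gene, and they add up to 66 in CC5325 and 60 in CC125. Of all annotated genes, 53.3% were listed above 0 in CC5325 and 21.2% in CC125. Of the mitochondrial genes, 8 of 8 were listed above 0 in CC5325 and 7 of 8 in CC125. The CC5325 library held 5.81 Gb of aligned bases in all, and the CC125 library 3.18 Gb. A coverage of 1 read per base was worth 0.392 TPM in CC5325 and 0.868 TPM in CC125, TPM being the deposited relative abundance per transcript length.

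The genes split by their place on the map: those from cob to nad6 had higher values in CC5325, and nad1 and rtl had higher values in CC125. By coverage, 6 of the 8 genes were at least 2-fold higher in CC5325 and 2 at least 2-fold lower. Among all 10062 annotated genes listed above 0 in at least 1 library, 83.2% were at least 2-fold higher in CC5325 by coverage and 7.54% at least 2-fold lower. By TPM, 3 of the 8, namely cox1, nad2 and nad6, were at least 2-fold higher, and 2 were at least 2-fold lower. Of the same 10062 genes, 74.0% were at least 2-fold higher and 11.5% at least 2-fold lower by TPM. The first share counts genes listed at 0 in CC125 as higher. Counted in that way cob, at 0 in CC125, would make 4 of the 8. Among the 3124 genes above 0 in both libraries, a set without cob, the 2-fold shares by TPM were 36.3% higher and 17.2% lower. By coverage, the 6 higher genes are a share near that of the 10062 genes, and each of their CC125 values rested on 0 to 3 reads.

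**Figure D1:**
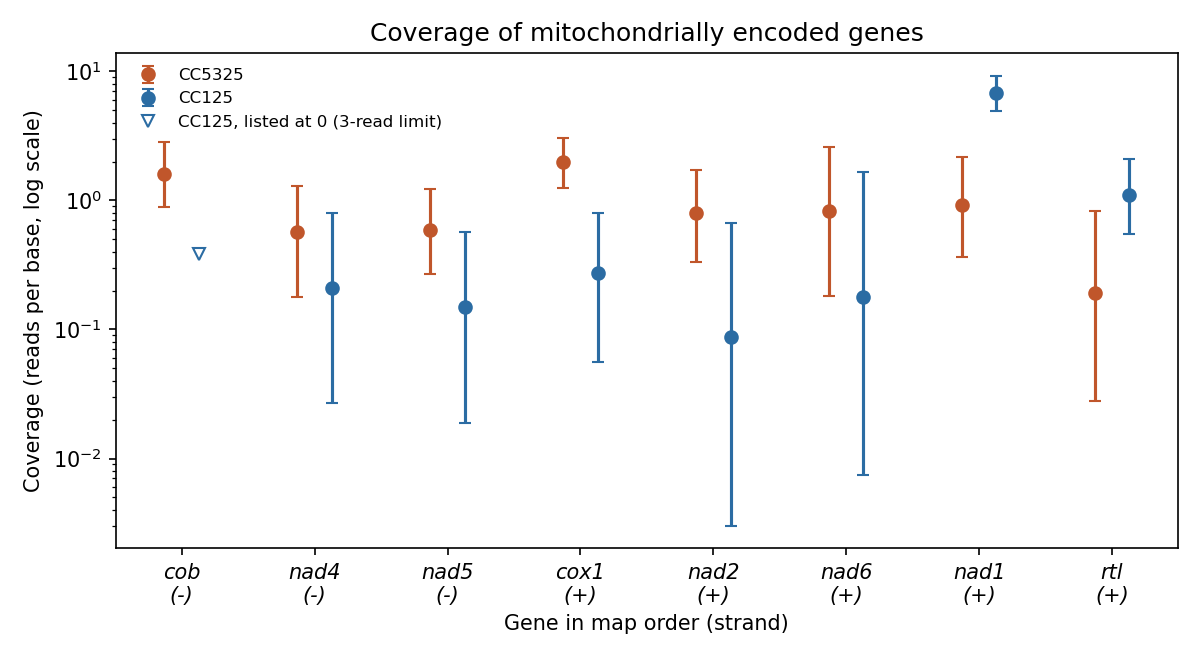
Coverage (reads per base, log axis) of the 8 mitochondrially encoded genes in map order, with CC5325 left of CC125 for each gene and exact Poisson intervals of the read count at 95%. The open triangle is the limit of 3 reads for cob, listed at 0 in CC125. CC5325 lies above CC125 from cob to nad6, and below it for nad1 and rtl.

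Of the left group, cob, for apocytochrome b, had a coverage of 1.60 reads per base in CC5325, which is 0.626 TPM, from 13 reads. In CC125 it was listed at 0. A count of 0 allows up to 3 reads, or a coverage of 0.384 and 0.333 TPM in CC125. Against that limit its level was at least 4.17-fold higher in CC5325 by coverage and at least 1.88-fold higher by TPM, without the counting error of the CC5325 reads. The exact interval of 13 reads against 0 begins at a ratio of 3.05 by coverage and 1.37 by TPM. The complex I gene nad4 had a coverage of 0.570 and 0.223 TPM in CC5325, against 0.211 and 0.183 TPM in CC125. Its coverage ratio of 2.70 had an interval of 0.409 to 26.3, from 5 and 2 reads. The neighbouring complex I gene nad5 had a coverage of 0.588 and 0.230 TPM in CC5325, against 0.149 and 0.129 TPM in CC125. Its coverage ratio of 3.95 had an interval of 0.798 to 38.7, from 8 and 2 reads. Neither nad4 nor nad5 differed beyond counting error.

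In the right group, cox1, for the catalytic subunit of cytochrome c oxidase, had the highest coverage of the 8 genes in CC5325. It stood at a coverage of 1.97 and 0.772 TPM in CC5325, from 22 reads, against 0.272 and 0.236 TPM in CC125, from 3 reads. Its coverage ratio was 7.24 (2.203 to 38.3), and its TPM ratio was 3.27 (0.994 to 17.3), an interval that takes in equality. The complex I gene nad2 had a coverage of 0.799 and 0.313 TPM in CC5325, against 0.0872 and 0.0758 TPM in CC125, where it rested on 1 read. Its coverage ratio was 9.15 (0.899 to 315). The shortest of the genes, nad6, also for complex I, had a coverage of 0.821 and 0.322 TPM in CC5325 and 0.179 and 0.156 TPM in CC125. Its coverage ratio of 4.58 (0.241 to 157) rested on 3 reads and 1 read.

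The complex I gene nad1 was lower in CC5325, and its ratio had the most reads behind it. It had a coverage of 0.927 and 0.363 TPM in CC5325, from 6 reads, against 6.76 and 5.87 TPM in CC125, from 41 reads. By coverage, CC125 exceeded CC5325 7.30-fold (2.88 to 19.7). Per library total of aligned bases the difference was 13.3-fold (5.27 to 36.0), and by TPM it was 16.2-fold (6.39 to 43.7). Among the 3124 annotated genes listed above 0 in both libraries, 22 (0.704%) had a TPM ratio of CC5325 over CC125 as low as that of nad1 or lower, nad1 included. A lower TPM in CC5325 was also frequent among plastid-encoded genes. Of 63 such genes above 0 in both libraries, 37 were at least 2-fold lower in CC5325 and 11 at least 2-fold higher. Of all 3124 genes, 537 were at least 2-fold lower and 1135 at least 2-fold higher.

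The gene rtl followed the same direction from fewer reads. It had a coverage of 0.191 and 0.0747 TPM in CC5325, from 2 reads, and 1.09 and 0.948 TPM in CC125, from 10 reads. CC125 exceeded CC5325 by 5.73-fold in coverage (1.07 to 46.9) and by 12.7-fold in TPM (2.36 to 104). Of the 7 genes with reads in both libraries, nad1 and rtl had intervals that leave out equality on the coverage scale, the library-total scale and the TPM scale. The interval of cox1 left it out on the coverage and library-total scales alone.

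**Figure D2:**
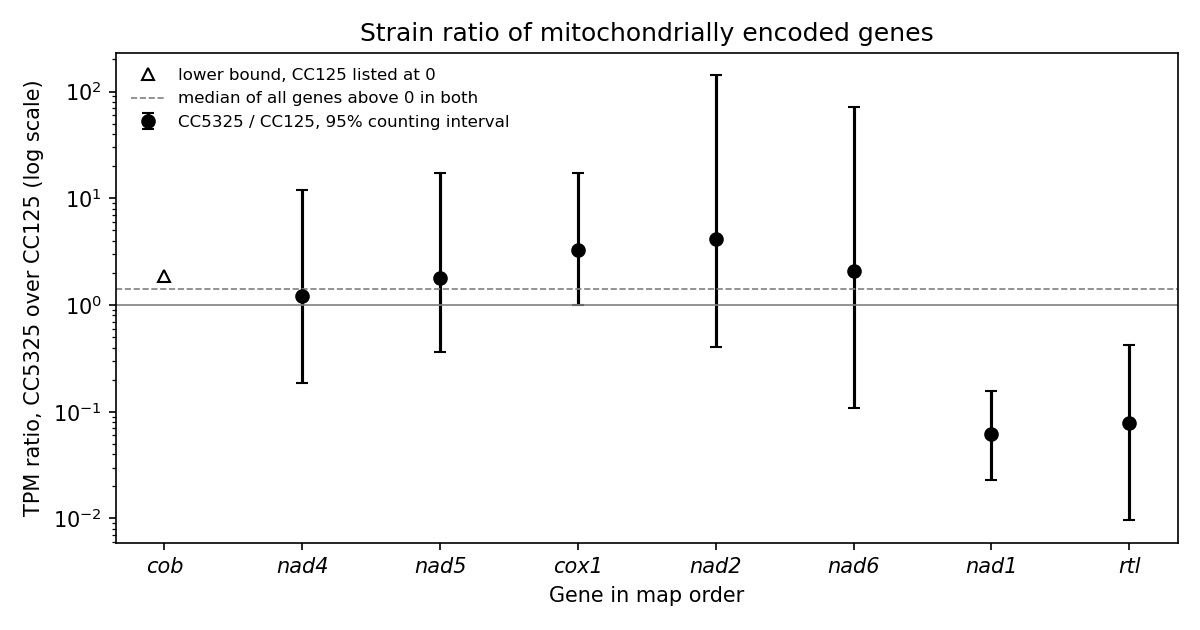
TPM ratio of CC5325 over CC125 (log axis) for the 8 genes in map order, with 95% counting intervals. The solid line marks equality, the dashed line the median of 1.42 over all genes above 0 in both libraries, and the open triangle the lower bound of 1.88 for cob. The intervals of nad1 and rtl lie wholly below both lines, and the other intervals cross the dashed line.

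Under the rule used across all genes, a 2-fold difference on the log2(TPM + 1) scale with a mean of at least 1 TPM, nad1 was the 1 mitochondrial gene that could be compared. It passed only through its CC125 value, so that its direction here was fixed and the call is a description. Its log2 ratio was -2.33, and -2.75 relative to the median of 0.41 over all genes that passed. It was -1.43 with FPKM in place of TPM, and with a pseudocount of 5 it was -1.02, at the edge of the 2-fold rule. Of the 175 annotated genes that passed this filter, 34.9% were at least 2-fold higher in CC5325 and 10.3% at least 2-fold lower. The other 7 genes lay below a mean of 1 TPM. The genes outside the mitochondrial genome with the ratio closest to that of nad1 were RPL37 (log2 ratio -2.37) and RPL35 (-2.07), both for cytosolic ribosomal proteins, and the plastid gene psbA copy CreCp.g802321 (-2.06), for the D1 protein of photosystem II, which has copies that can share reads. Likeness here is the difference in this ratio between 2 libraries, and many genes can share a ratio over so few.

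The division of reads among the 8 genes does not depend on any scale between libraries. In CC5325, 8.74% of the aligned bases in the 8 genes lay in nad1 (3.41% to 18.7% by the exact binomial interval on reads), against 69.6% in CC125 (55.0% to 79.7%). For rtl the shares were 2.62% in CC5325 (0.369% to 10.5%, from 2 reads) and 16.4% in CC125 (8.29% to 28.5%, from 10 reads). The intervals of rtl overlap. The genes nad1 and rtl together held 11.4% of these bases in CC5325 and 86.0% in CC125. This pair was put together after its values were seen, so its sum describes the libraries and adds no support.

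The remaining genes made up the rest of that division. Both other groups of 3 took larger shares in CC5325. Shares add up to the whole, so their joint rise follows from the lower share of nad1 and rtl and adds no support. The second group is the plus strand without nad1 and rtl, left out after their values were seen. The minus-strand genes cob, nad4 and nad5 held 39.6% in CC5325 and 6.54% in CC125. The genes cox1, nad2 and nad6 held 49.0% in CC5325 and 7.45% in CC125. Their coverage over all 3 genes averaged 0.849 in CC5325 and 0.129 in CC125 for the minus-strand genes, and 1.37 and 0.190 for cox1, nad2 and nad6. Coverage ratios of these groups were close to each other, 6.61 (2.26 to 25.6) and 7.19 (2.48 to 21.0). Coverage is not scaled for the deeper CC5325 library. On the TPM scale the ratios were 2.98 (1.02 to 11.6) and 3.24 (1.12 to 9.49). Both TPM intervals take in 1.42, the median over all genes above 0 in both libraries.

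**Figure D3:**
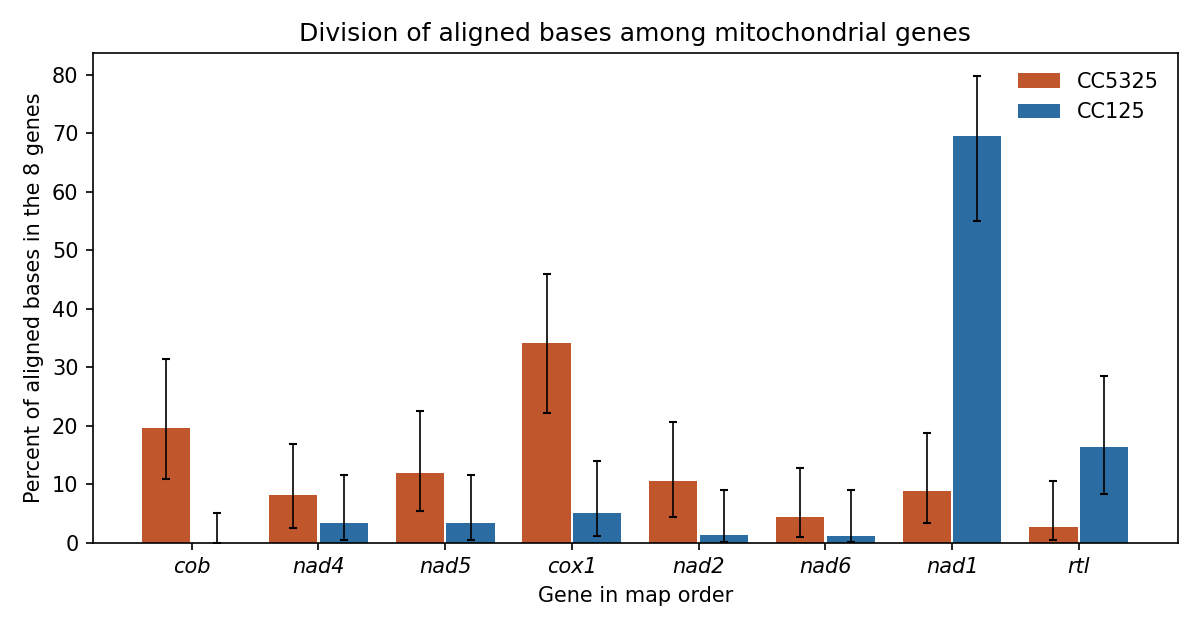
Percent of the aligned bases in the 8 genes that each gene held, CC5325 left of CC125, with 95% exact binomial intervals on reads (for cob in CC125, the limit of 3 reads). In CC125 nad1 held 69.6%, and in CC5325 cox1 held 34.1%.

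The order of the genes differed between the libraries. Per base, the CC5325 order was cox1, cob, nad1, nad6, nad2, nad5, nad4 and rtl. Its coverage of cox1 was 3.35-fold that of nad5 (1.37 to 8.30), 3.45-fold that of nad4 (1.33 to 12.2) and 10.3-fold that of rtl (2.15 to 76.7). It did not exceed that of cob (1.23-fold, 0.580 to 2.60), nad1 (2.13-fold, 0.786 to 6.02), nad6 (2.40-fold, 0.678 to 11.8) or nad2 (2.47-fold, 0.991 to 6.66) beyond counting error.

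In CC125 the order was nad1, rtl, cox1, nad4, nad6, nad5 and nad2, with cob at 0. There nad1 had 6.19 times the coverage of rtl (2.95 to 13.4) and 24.8 times that of cox1 (8.003 to 127). The gene rtl had 4.01 times the coverage of cox1 (1.08 to 23.7), whereas in CC5325 it had 0.0967 times that of cox1 (0.0130 to 0.465). Neighbours from cox1 down to nad2 did not differ beyond counting error in CC125. Among all annotated genes, 380 had a higher coverage than nad1 in CC5325 and 18 in CC125, while 232 had a higher coverage than cox1 in CC5325 and 316 in CC125.

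The summed level of the 8 genes depended on nad1. They added up to 2.92 TPM in the CC5325 library and to 7.60 TPM in the CC125 library, a ratio of 0.385. Without nad1 the ratio was 1.48, from sums of 2.56 TPM in CC5325 and 1.73 TPM in CC125. By aligned bases, without any scaling for length or library, the ratio of the 8 genes was 1.09 (0.764 to 1.59). The 5 complex I genes alone had a summed TPM of 1.45 in CC5325 and 6.41 in CC125, of which nad1 made up most in CC125.

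Loci assembled from the reads without a reference gene carried far more signal than the genes, and all of them lay to the right of nad6. CC5325 had 6 assembled loci on the mitochondrial genome and CC125 had 4. In each library 2 of these repeated an annotated gene at the same coordinates, strand and coverage, so the same reads stand in both rows. These were cob and cox1 in CC5325, and nad1 and rtl in CC125. They are the genes with a coverage of at least 1 read per base in their library, and no gene below that coverage had such a locus.

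The other loci carried no strand and no gene. In CC5325 they were at 9445 to 10339 with a coverage of 871 reads per base, at 11259 to 11576 with 399, at 13047 to 13687 with 520, and at 13962 to 14444 with 736. In CC125 they were at 9446 to 10339 with 1742 and at 13960 to 15092 with 1182. They covered 2337 bases in CC5325 and 2027 bases in CC125, with a mean coverage of 682 and 1429 reads per base. This was 721 times the mean coverage of the 8 genes in CC5325 and 1649 times in CC125. The files give no annotation at these positions, and whether the loci are pieces of ribosomal RNA was not tested.

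**Figure D4:**
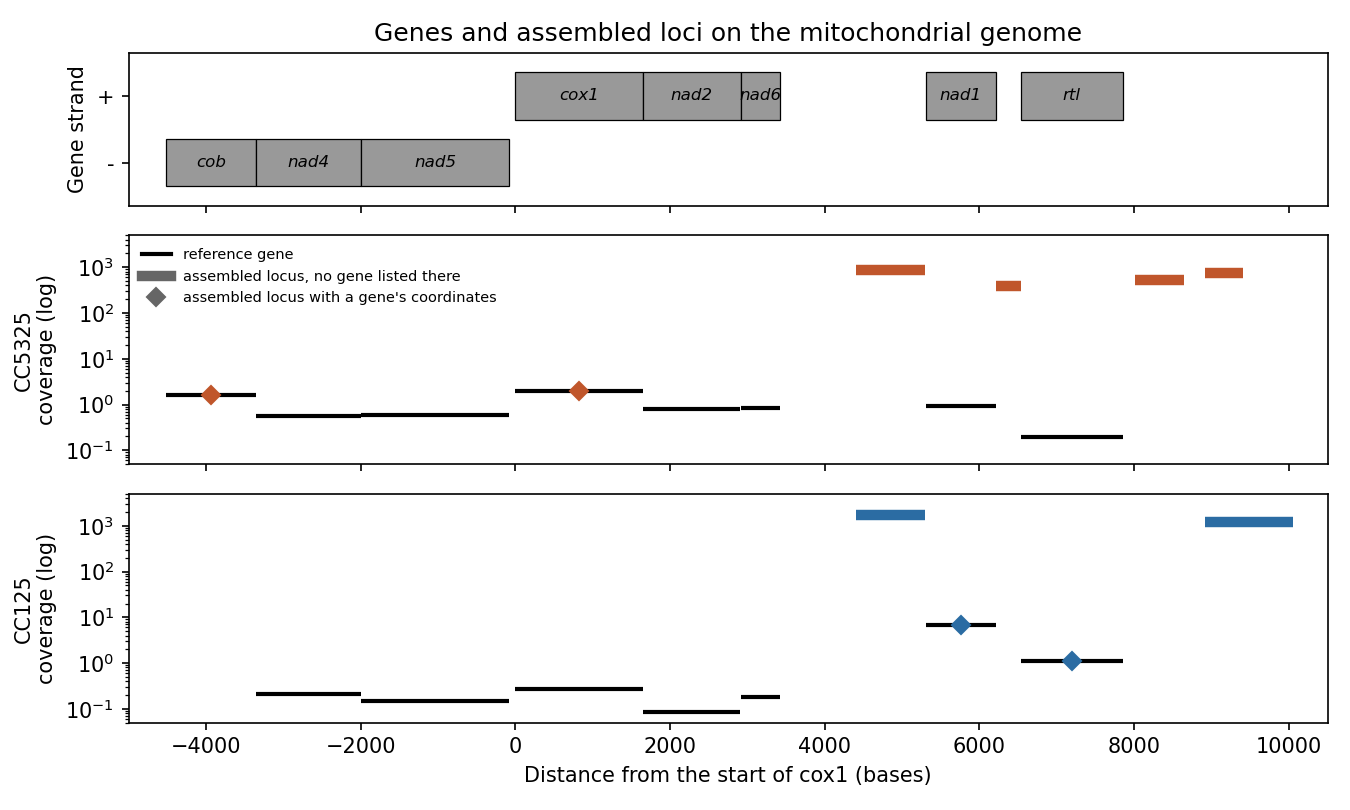
Map of the mitochondrial genome, in bases from the start of cox1. The top panel shows the 8 genes by strand, and the middle and bottom panels show coverage (log axis) in CC5325 and then CC125, with genes in black, assembled loci without a gene as coloured bars and loci that repeat a gene as diamonds. The bars, at 399 to 1742 reads per base, lie to the right of nad6 and on either side of nad1 and rtl.

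The locus that both libraries share nearly base for base lay just left of nad1. At 9445 to 10339 in CC5325 and 9446 to 10339 in CC125, its level was 341 TPM in CC5325 and 1519 TPM in CC125. CC125 exceeded CC5325 2.001-fold by coverage, 3.65-fold per library total of aligned bases and 4.44-fold by TPM. The last loci of the libraries shared 483 bases, which are 100% of the CC5325 locus and 42.6% of the CC125 locus. Their levels are means over these different stretches, so no fold is given. The CC5325 loci at 11259 to 11576 and 13047 to 13687 had no partner among the CC125 loci.

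The genes nad1 and rtl, which were lower in CC5325, lay between these loci, and the other 6 genes lay to the left of all of them. The gene nad1 began 13 bases after the shared locus in both libraries, and in CC5325 the next locus began 7 bases after its end. In CC125 the next locus to its right began 2708 bases away. The gene rtl began 4 bases after a locus in CC5325, whereas in CC125 its nearest such locus lay 1067 bases to its right. Of the genes to the left, nad6 ended 984 bases before the first locus in CC5325 and 985 bases before it in CC125, where it was thus nearer to a locus than rtl was. The gene cob ended 7754 bases before the first locus in CC5325 and 7755 in CC125.

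The reads in nad1 were few beside those of its neighbour. Its aligned bases amounted to 0.656% of those of its nearest locus (11259 to 11576) in CC5325 and to 0.390% of those of its nearest locus (9446 to 10339) in CC125. These are different loci, so the 2 percentages cannot be compared between the libraries. Beside the shared locus on its left, nad1 held 833 aligned bases against 779209 in CC5325. In CC125 it held 6077 against 1557657. The files hold 1 coverage value per gene and none per base, so how reads lay along nad1 is not known, and the part of reads running over from the neighbouring loci was not tested.

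Nuclear genes of the same machinery were mostly at low levels, as were most annotated genes. A list by symbol held 178 nuclear genes for the respiratory complexes, ATP synthase, alternative oxidases and dehydrogenases, the mitochondrial ribosome and mitochondrial transcription, including some assembly factors. None of them reached a mean of 1 TPM, so 0 could be compared by the 2-fold rule, and of all annotated genes 0.989% reached it. Of the 178, 111 (62.4%) were listed above 0 in CC5325 and 53 (29.8%) in CC125, and 49 in both, beside the 53.3% and 21.2% of all annotated genes. The median coverage of the list was 0.0529 in CC5325 and 0 in CC125, and over all annotated genes it was 0.0158 in CC5325 and 0 in CC125. Of the 49, 16 had a TPM at least 2-fold higher in CC5325 and 6 at least 2-fold lower. Among all 3124 genes above 0 in both libraries the shares were 36.3% and 17.2%.

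By complex, 31 of 41 complex I genes were above 0 in CC5325 and 19 in CC125. For ATP synthase the counts were 20 of 23 in CC5325 and 10 in CC125, and for complex IV 11 of 16 and 7. For complex III and cytochrome c, 10 of 10 were above 0 in CC5325 and 5 in CC125. For complex II they were 5 of 7 in CC5325 and 3 in CC125, and for the alternative oxidases and dehydrogenases 7 of 8 and 3. These counts go by symbol and take in assembly factors, so a gene at 0 need not be a subunit. At 0 in CC5325 were ATP11, ATP12 and ATP23 for ATP synthase, and COX15, COX16, COX17, COX23 and COX191 for complex IV. For complex II, SDHAF1 and SDHAF2 were at 0 there. Of the mitochondrial ribosomal protein genes, 27 of 72 were above 0 in CC5325 and 6 in CC125. MOC1, a nuclear gene for a factor that ends mitochondrial transcription in this alga, was listed at 0 in both libraries.

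Several subunits that are encoded in mitochondria in many other organisms are nuclear genes in this alga, and they were named for that role after the tables had been read. COX2A and COX2B encode separate parts of subunit 2 of cytochrome c oxidase. COX2A had 0.636 TPM in CC5325 and 0 in CC125. COX2B had 0.393 TPM in CC5325, against 0.169 TPM in CC125. COX3, for subunit 3 of the same complex, had 0.360 TPM in CC5325, against 0.0250 TPM in CC125. ATP6, for a membrane subunit of ATP synthase, had 0.412 TPM in CC5325, against 0.140 TPM in CC125. Of the complex I genes, NUO3 had 0.0597 TPM in CC5325 and 0 in CC125, and NUO11 had 0.0655 TPM in CC5325, against 0.0368 TPM in CC125. As genes picked by hand, these 6 show no direction of the list. The 6 are not a full set for that role, and all of them were higher in CC5325. NUO9 and ATP9A were left out and went the other way. The TPM of NUO9 was 0.139 for CC125 but 0.0643 for CC5325. For ATP9A the values were nearly equal, 0.2273 and 0.2267 in that order. NUO7 and ATP9B, also left out, were above 0 in CC5325 alone. Of the 49 listed genes above 0 in both libraries, 33 had a higher TPM in CC5325 and 16 a lower one. The files hold no exon lengths, so the reads behind these nuclear values and their counting intervals are not given.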

How the data were processed

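RNA sequencing was read as 150 base paired ends in 1 library of each strain. Per the submitters' processing notes, StringTie 2.2.3, HISAT2 2.2.1, FastQC 0.12.1 and Trimmomatic were used. The sources used here give neither their settings nor the strandedness of the libraries. Tables deposited by the authors give, per the file headers, coverage (a signal of reads per base), FPKM and TPM for each annotated gene and each locus assembled in that library. In the deposited tables the TPM of assembled loci alone add up to 1000000 per library, and annotated genes come on top. All annotated genes together add up to 2507 TPM in CC5325 and 1576 TPM in CC125. The TPM values and TPM ratios of genes therefore carry a scale set by the assembled loci. The library total of aligned bases is the ratio of deposited coverage to deposited FPKM.

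Aligned bases were computed as coverage times span, rounded to whole bases. Ratios are CC5325 over CC125. Intervals are exact binomial (Clopper-Pearson) at 95%, conditional on the reads of both libraries, with mates treated as independent. The same intervals counted on read pairs would be wider. No test between strains was made. All 8 genes are named, and for the pattern closest to nad1 the 3 genes with the nearest ratio. The genes, lists and rules were chosen with earlier results of these data known. Alternatives were pseudocounts of 0.1 and 5, other scales, other filters and other overlap rules. Scripts ran on scipy 1.17.1, pandas 2.3.3 and numpy 2.4.6 under Python 3.11.15, with plots by matplotlib 3.10.9, and the ratio measure was tested on simulated data. Sequences of the genes were not used here.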

Additional observations from a re-analysis of the deposited data

How the results depend on the processing

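No paired analysis was possible because each strain has 1 library, and leaving out a library leaves nothing to compare. Of 67 alternative values, 57 kept their direction and stayed near the main value. Near means within a counting interval of the main value's width, within 1.5 times for counts, or within 2-fold for the lower bound of cob. Many of the 57 could not have changed, so their number does not measure robustness. The nuclear counts stayed at 0 because no listed gene passed the filter or exceeded 0.703 TPM. For mitochondrial genes higher in CC5325, nad1 alone could pass the filter, and without it none exceeded 0.772 TPM. The overlap counts compared genes with loci at the same coordinates. The log2 ratio of nad1, -2.33, ran from -3.69 with a pseudocount of 0.1 to -1.02 with a pseudocount of 5. With coverage divided by the median coverage of genes above 0 in both libraries, nad4 turned to a ratio of 0.827, the lower bound for cob became 1.28 and the ratio of nad1 became 0.0420. With a mean of at least 5 TPM, 0 mitochondrial genes remained to be compared. The summed TPM of the 8 genes, a ratio of 0.385, turned to 1.48 without nad1, and, under alternatives chosen after seeing the data, to 3.19 without nad1 and rtl and to 1.09 by aligned bases. The summed TPM of assembled loci, a ratio of 0.388, became 0.471 with FPKM and 0.629 without the highest locus of each library. By aligned bases, chosen after seeing the data, it became 0.551. These sums run over different stretches, 6 loci of 5160 bases in CC5325 and 4 loci of 4238 bases in CC125. Their ratio is therefore not that of a common set of regions. Without nad1 the summed TPM of the 8 genes loses its largest term in CC125. Division by the median coverage moved every coverage ratio by the same factor. The change with FPKM is likewise a fixed factor between the 2 scales. The cause of the remaining changes was not tested. With 1 to 3 reads behind 5 of the CC125 values, differences of nad4, nad5, nad2 and nad6 were not detectable at this depth.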
